A study of Mus musculus with 5 samples.

Results

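Plasma proteins made mainly by the liver are classical products of genes that the nuclear receptor HNF4 alpha drives in hepatocytes. The genes described here are 10 of these: Alb, Afp, Ttr, Ahsg, Fga, Fgb, Fgg, Serpinc1, F10 and Apoh. They were chosen by name as hepatic targets of HNF4 alpha, with earlier results of these data known, and read in the fetal colon by every probe set annotated to a single one of these symbols. All 10 were measured, by 18 of the 22626 probe sets tested, with 7 genes on 1 probe set each, F10 and Ttr on 3 each and Afp on 5.

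Gene expression was measured on 1 array for each of 5 mouse embryos at stage E18.5, from total RNA of whole fetal colon. The HNF4 null group held 3 embryos of genotype HNF4LoxP/LoxP FoxA3Cre (null_59, null_60 and null_426), with loxP sites on both HNF4 alleles. The control group held 2 embryos of genotype HNF4LoxP/+ FoxA3Cre (CONTROL_406 and CONTROL_421), with loxP sites on a single allele, so that the Cre transgene and at least 1 floxed allele were shared by all 5. The name of the Cre refers to Foxa3, whose product is a forkhead factor of endoderm, so the epithelium, which derives from endoderm, is the layer it concerns. The colons were whole, and layers of the gut wall with other origins are part of each sample. The labels name the gene only as HNF4, do not say which part of it lies between the loxP sites, and do not say whether the embryos were littermates.

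HNF4 alpha binds DNA as a pair of identical subunits and, in the liver, works in one network with HNF1 alpha, the FOXA factors and C/EBP factors to keep genes of secreted plasma proteins on. The same receptor is present in the epithelium of the intestine and colon. The liver, the visceral yolk sac and, for some of these genes, the early gut endoderm are their known fetal sources, and the fetal colon is not a main site of synthesis for any of them. Since these are bulk tissue samples, fewer cells of a type and less RNA per cell cannot be told apart.

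Alb and Afp, which are neighbours on chromosome 5, and Fgg, Fga and Fgb, which lie side by side on chromosome 3, belong to clusters of related genes. Promoter stretches of 5 of the 10 genes are shown because they hold letters like the binding motifs of the liver factors HNF4 and HNF1. The motif search was not used to choose the genes. They were chosen as hepatic targets of HNF4 alpha, however, so such matches are not independent of the choice. RefSeq sequences of build GRCm38.p6, from 250 bases before to 50 after the start, were at hand for 9 of the genes. The capitals mark matches to the HNF4 motif CAAAGTCCA with up to 1 mismatch or to the palindromic HNF1 consensus of 13 letters with up to 2 mismatches, searched on both strands, and no match overlapped another. Each stretch ends before the start of transcription and is written 5′ to 3′ on the strand of the gene.
Alb (chr5:90460818-90460869, plus strand, HNF1): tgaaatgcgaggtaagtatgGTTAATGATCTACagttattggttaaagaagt
Afp (chr5:90490546-90490707, plus strand, HNF4 then HNF1 at 2 places): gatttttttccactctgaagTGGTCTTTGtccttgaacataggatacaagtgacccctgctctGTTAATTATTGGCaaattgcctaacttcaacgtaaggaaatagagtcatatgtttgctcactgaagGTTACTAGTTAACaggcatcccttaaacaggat
Fga (chr3:83026083-83026135, plus strand, HNF1): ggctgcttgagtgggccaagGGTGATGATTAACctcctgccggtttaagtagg
Fgb (chr3:83049867-83049919, minus strand, HNF1): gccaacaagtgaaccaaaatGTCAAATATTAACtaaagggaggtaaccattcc
Ahsg (chr16:22891853-22891901, plus strand, HNF4): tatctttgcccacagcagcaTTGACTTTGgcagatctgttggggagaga
An HNF1 match was present in 4 of the 9 promoters, against 1.36% of the 32851 promoters of the same length in the table. An HNF4 match was present in 2 of the 9, against 8.47% of all promoters, and 0 of the 9 held it without a mismatch, as did 0.475% of all. A match describes letters only and is not a binding site, and given how the genes were chosen, these shares are not independent evidence.

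The arrays were alike in scale, with median intensities from 124 to 135, and CONTROL_421 stood apart in the 3'/5' ratio of the Gapdh controls (1.47, with 0.767 to 0.895 elsewhere). Some markers of the labelled tissue were bright. Krt8 and Krt19, keratins of simple epithelium, averaged 4267 and 3539 in null colons and 4808 and 3350 in control colons. Tff3, a goblet cell peptide, averaged 4918 and 5192. Other genes of colon epithelium were dim, as Slc26a3 (41.3 in null and 54.7 in control colons) and Fabp2 (75.7 and 97.1). Epcam was bright but lower in null colons, at 1483 against 2454. The whole list is described below. Hnf4a itself had 4 probe sets, and 0 of them passed the threshold of an adjusted p under 0.05 in limma, which compared null with control colons over all probe sets. By probe set 1427000_at its intensity was 344, 348 and 358 in null arrays against 640 and 442 in control arrays, a log2 difference of -0.55 ± 0.19 (SE, adjusted p = 0.603). By 1427001_s_at it was 649.8, 746 and 723 against 945 and 991, and the 2 other probe sets differed by 0.14 and 0.19, the first of these turning to -0.20 without CONTROL_421. Whether the probe sets lie inside the deleted part was not tested.

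Most probe sets of the plasma protein genes were dim in both genotypes, and a difference between the genotypes passed the test for none of them. F10 by 1418993_s_at (means of 310 in null and 298 in control colons) and Ttr by 1451580_a_at (239 and 270) were brighter. Both lay above the median intensity of all probe sets (124 to 135) on every array. In limma, 0 of the 18 probe sets passed the threshold, against 0.124% of all probe sets. Before adjustment, 2 stood lower and 0 higher at a p under 0.05, against 4.33% and 2.82% of all. Both of the lower ones belonged to Ttr. The median log2 difference was 0.03 over the 10 genes by the brightest probe set of each (mean over all 5 arrays), and 0.02 over all 12393 genes measured. It was -0.053 without CONTROL_406 and 0.15 without CONTROL_421, and over all 18 probe sets, 10 of them below 0, it was -0.06.

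How dim the members were can be set against 50 genes of organs other than the gut (retina, lens, testis, ovary, pituitary, lung, muscle and others), of which 44 were measured by 57 probe sets. Probe sets differ in brightness for the same amount of RNA, so this comparison shows only the range in which signals of genes from other organs fell and ranks no gene by its amount. The 95th percentile of these probe sets was between 286 and 315 and their median between 73.6 and 85.8 on the 5 arrays. Of the 18 member probe sets, 0 exceeded the 95th percentile on every array, 1 exceeded it on some arrays, and 9 lay below the median on every array. By brightest probe sets, 0 of the 10 members exceeded the 95th percentile on every array and 1 on any. Of all 12393 genes, 2169 did so on every array and 3857 on any, so most genes stayed within this range too. The share of all genes below the median was not computed. A level within the range of the genes of other organs is not told apart from probe background, and a change of such a gene may then go undetected.

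**Figure D1:**
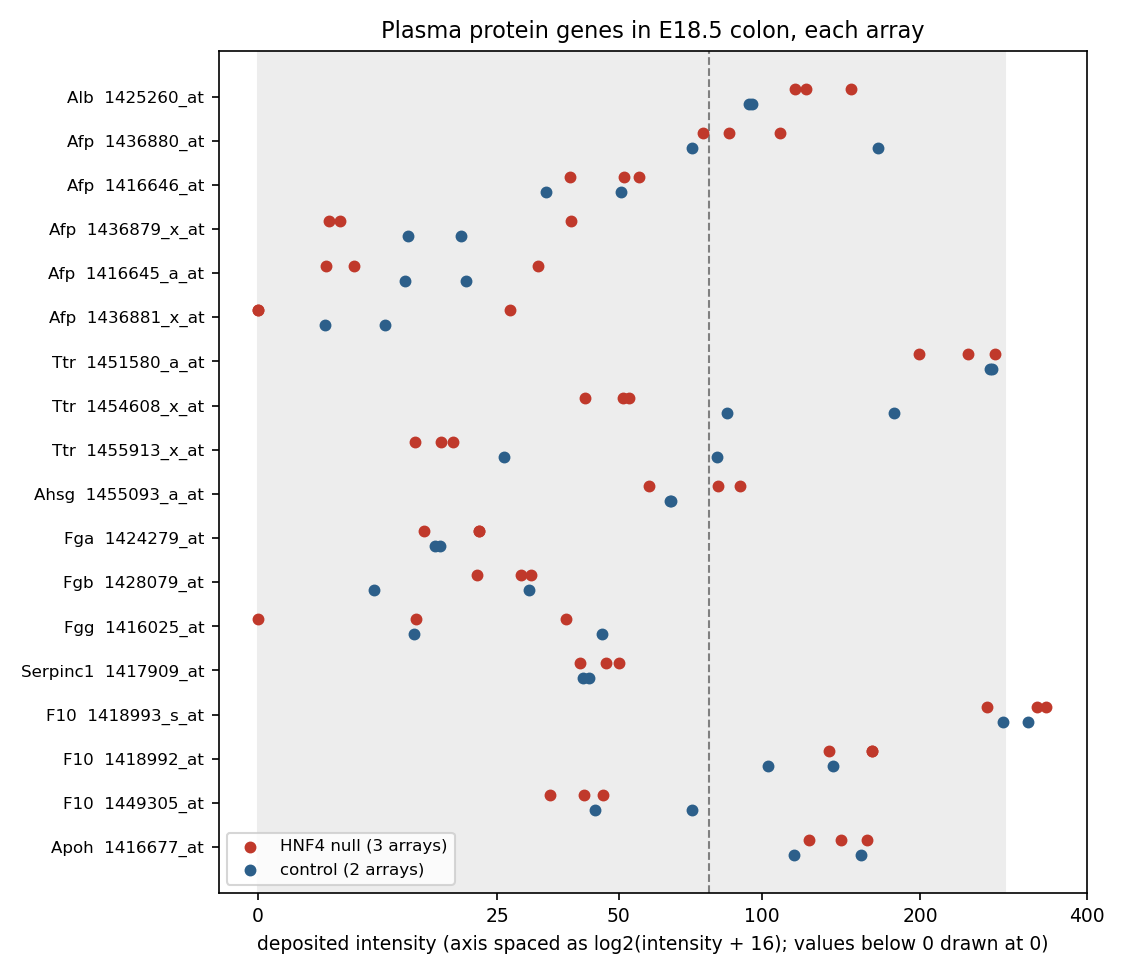
Deposited intensity of the 18 member probe sets on each array, with HNF4 null arrays (red) drawn above control arrays (blue) in each row; the axis is spaced as log2(intensity + 16), the grey band reaches up to the lowest 95th percentile (286) of probe sets of genes from other organs, and the dashed line is the mean of the array medians of those probe sets. Only probe set 1418993_s_at of F10 reaches beyond the band, and the 2 Ttr probe sets 1454608_x_at and 1455913_x_at have all 3 null arrays below both control arrays.

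Albumin, the main carrier protein of plasma, is encoded by Alb. Its single probe set, 1425260_at, read 149, 122 and 116 in null_59, null_60 and null_426, against 94.2 and 95.6 in CONTROL_406 and CONTROL_421. All 3 null arrays stood above both control arrays, an order seen in 14.6% of all probe sets. The log2 difference was 0.32 ± 0.18 (SE, 95% interval -0.08 to 0.72, adjusted p = 0.759), so the gene did not pass the test. It stayed between 0.21 and 0.45 under the 12 alternative settings, with adjusted p of at least 0.392.

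Afp encodes alpha-fetoprotein, the albumin-like carrier of fetal plasma and a product of fetal liver and yolk sac. Its brightest probe set, 1436880_at, read 85.8, 75.9 and 109 in null arrays and 72.1 and 167 in control arrays. The highest and the lowest value both fell in the control group, and the difference of -0.31 ± 0.29 (SE, adjusted p = 0.830) became 0.24 without CONTROL_421. Probe set 1416646_at read 38.4, 55.5 and 51.4 in null arrays against 50.6 and 33.7 in control arrays, and the groups overlapped.

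The other 3 Afp probe sets were among the dimmest members and moved together across arrays. Probe set 1416645_a_at read 4.90, 32.1 and 7.37 in null arrays and 20.3 and 12.5 in control arrays. Probe set 1436879_x_at read 6.03, 38.7 and 5.11 in null arrays and 12.8 and 19.6 in control arrays. Probe set 1436881_x_at read -2.43, 27.1 and -0.330 in null arrays and 4.77 and 10.4 in control arrays. In all 3 of them null_60 was the highest array, and both other null arrays lay below both control arrays. Their pairwise Pearson correlations over the 5 arrays were 0.879, 0.890 and 0.994 on the log2 scale, a description of probe sets that target the same gene. Their correlations with the brightest one were -0.23, 0.07 and 0.09. The 5 Afp probe sets gave log2 differences from -0.31 to 0.07, with adjusted p between 0.830 and 0.959. Alb, the neighbouring gene, was highest in null_59 and not in null_60.

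Transthyretin, the carrier of thyroid hormone and of retinol-binding protein, is encoded by Ttr, and its 3 probe sets disagreed. By the array maker's naming, a probe set ending in _x_at holds probes that also match other sequences, while _a_at marks one that covers several transcripts of the same gene. Probe set 1454608_x_at read 41.8, 51.2 and 52.6 in null_59, null_60 and null_426, against 179 and 85.0 in CONTROL_406 and CONTROL_421. Probe set 1455913_x_at read 18.4, 16.8 and 13.6 in null arrays, against 81.1 and 26.1 in control arrays. In both, the 3 null arrays were close to each other and below both control arrays, an order seen in 9.64% of all probe sets, and CONTROL_406 was the highest array.

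The log2 difference was -1.19 ± 0.24 (SE, 95% interval -1.73 to -0.65, adjusted p = 0.214) for 1454608_x_at. It was -1.08 ± 0.28 (SE, 95% interval -1.71 to -0.45, adjusted p = 0.432) for 1455913_x_at. Neither passed the threshold, and the size of the difference depended on the control array. Without CONTROL_406 it was -0.76 for 1454608_x_at (adjusted p = 0.232) and -0.55 for 1455913_x_at (adjusted p = 0.448). Without CONTROL_421 it was -1.60 for both, with adjusted p of 0.0483, past the threshold, and 0.0545. The 2 probe sets correlated at 0.964 over the 5 arrays.

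The brightest Ttr probe set, 1451580_a_at, gave another picture. It read 245, 199 and 274 in null arrays and 269 and 271 in control arrays, with null_426 above both control arrays. Its difference was -0.17 ± 0.19 (SE, 95% interval -0.59 to 0.25, adjusted p = 0.860), and under the 12 alternatives it ran from -0.28 to -0.03. The intervals of this probe set and of 1454608_x_at did not overlap, while those of this probe set and of 1455913_x_at did. Which of the 3 probe sets reflects Ttr transcripts was not tested.

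**Figure D2:**
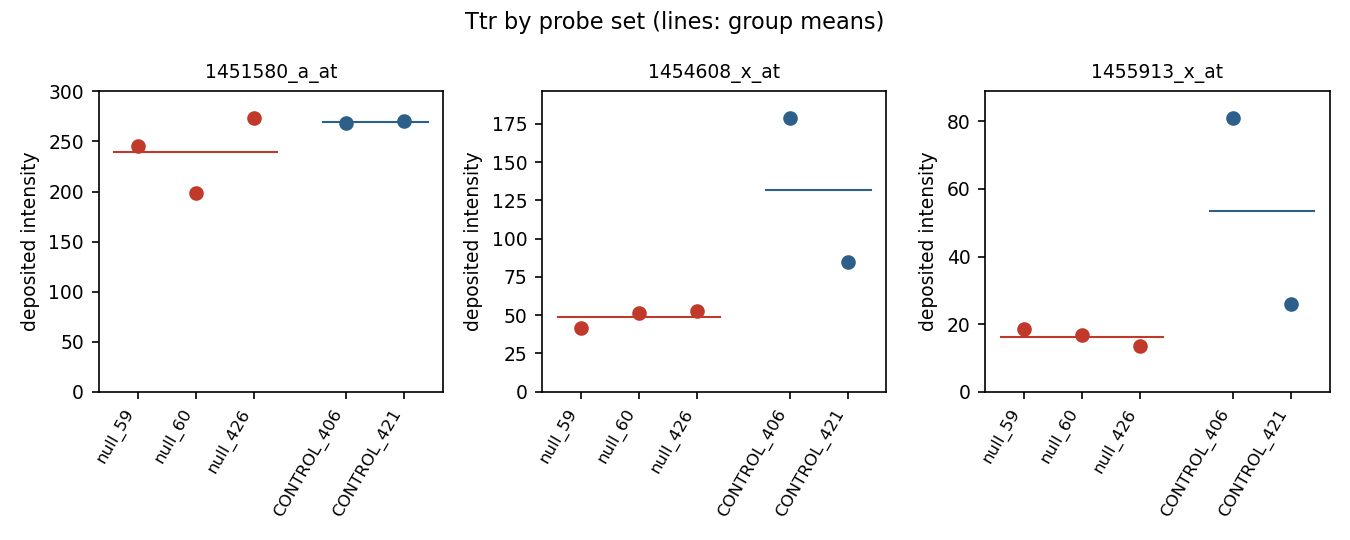
Deposited intensity of the 3 Ttr probe sets on each array, HNF4 null arrays (red) at the left of control arrays (blue) and lines at the group means. Null and control colons averaged 239 and 270 by 1451580_a_at, 48.6 and 132 by 1454608_x_at, and 16.3 and 53.6 by 1455913_x_at, with CONTROL_406 far above CONTROL_421 in the last 2.

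Ahsg encodes fetuin-A, a mineral-binding glycoprotein abundant in fetal plasma. Its probe set, 1455093_a_at, read 81.6, 58.4 and 90.6 in null arrays against 65.2 and 64.9 in control arrays. The control values fell between the null ones, and the difference was 0.11 ± 0.19 (SE, adjusted p = 0.910).

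The 3 fibrinogen chains, which assemble into the clotting protein fibrinogen, were among the dimmest members. Fga, the alpha chain, read 22.2, 14.7 and 22.1 in null arrays and 16 and 16.8 in control arrays (log2 difference 0.05 ± 0.18, SE, adjusted p = 0.963). Fgb, the beta chain, read 30.8, 21.8 and 29.0 in null arrays and 9.27 and 30.5 in control arrays, a difference of 0.26 ± 0.29 (SE, adjusted p = 0.856) that became -0.28 without CONTROL_406. Fgg, the gamma chain, read 13.7, -25.1 and 37.6 in null arrays and 45.9 and 13.5 in control arrays, a difference of -0.62 ± 0.43 (SE, adjusted p = 0.789). Its size rested on single arrays, at -0.15 without CONTROL_406, -0.19 without null_60 and -1.09 without CONTROL_421. A smaller pseudocount, 1 in place of 16, gave -1.78. The null and control values of all 3 chains overlapped, and each array's 3 values lay under the median of the genes of other organs. Although the genes neighbour each other, the arrays did not fall in the same order for the 3 chains: Fga and Fgb were highest in null_59, and Fgg in CONTROL_406.

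Serpinc1 encodes antithrombin, the main inhibitor of thrombin and of activated factor X. Its probe set, 1417909_at, read 50.2, 46.7 and 40.7 in null arrays and 42.8 and 41.4 in control arrays. The spread over all 5 arrays was under 10 units of intensity, and the difference was -0.0048 ± 0.17 (SE, 95% interval -0.39 to 0.38, adjusted p = 0.998).

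F10 encodes coagulation factor X, the protease that turns prothrombin into thrombin. Its brightest probe set, 1418993_s_at, read 326, 265 and 339 in null arrays against 283 and 314 in control arrays. These were the only member values above the 95th percentile of the genes of other organs, in 2 null arrays and 1 control array. The suffix _s_at marks probes shared by transcripts of more than 1 gene, and the difference was 0.07 ± 0.19 (SE, adjusted p = 0.948). Probe set 1418992_at read 163, 135 and 163 in null arrays and 103 and 138 in control arrays (0.29 ± 0.19, SE, adjusted p = 0.780). The dimmest, 1449305_at, read 41.5, 34.3 and 46.1 in null arrays and 44.1 and 72.0 in control arrays, a difference of -0.45 ± 0.21 (SE, 95% interval -0.93 to 0.04, adjusted p = 0.719). Without CONTROL_406 and without CONTROL_421 it was -0.77 and -0.12 for 1449305_at, and 0.070 and 0.50 for 1418992_at. The 3 probe sets of F10 thus gave differences of both signs, and none passed the threshold.

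Apoh encodes apolipoprotein H, also called beta-2-glycoprotein I, a phospholipid-binding plasma protein. Its probe set, 1416677_at, read 124, 142 and 159 in null arrays and 155 and 116 in control arrays. The groups overlapped, with the lowest value in CONTROL_421 and the highest in null_426, and the difference was 0.02 ± 0.18 (SE, 95% interval -0.38 to 0.42, adjusted p = 0.983). Fold differences of null over control below 0.769 and above 1.34 lay outside this interval.

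Across the members other than Ttr, the 15 probe sets had log2 differences from -0.62 (Fgg) to 0.32 (Alb), and the smallest adjusted p was 0.719 (F10, 1449305_at). By order of the arrays, 15 of all 18 probe sets overlapped between the genotypes, Alb was higher in all 3 null arrays and the 2 Ttr probe sets were lower in them. These are 5.56% and 11.1% of the 18, against 14.6% and 9.64% of all probe sets. The highest value of a probe set fell in null_59 for 5, null_60 for 4, null_426 for 4, CONTROL_406 for 3 and CONTROL_421 for 2 of the 18, so no array was highest for most members. The intensities of the brightest probe set of each of the 10 genes summed to 1128, 945 and 1217 in the null arrays. They summed to 1053 and 1129 in the control arrays, within the range of the null ones. F10 1418993_s_at and Ttr 1451580_a_at weigh most in these sums, and the 2 Ttr probe sets that were lower are not in them. The intervals did not exclude log2 differences as high as 0.90 (Fgb) or as low as -1.58 (Fgg) for members other than Ttr.

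**Figure D3:**
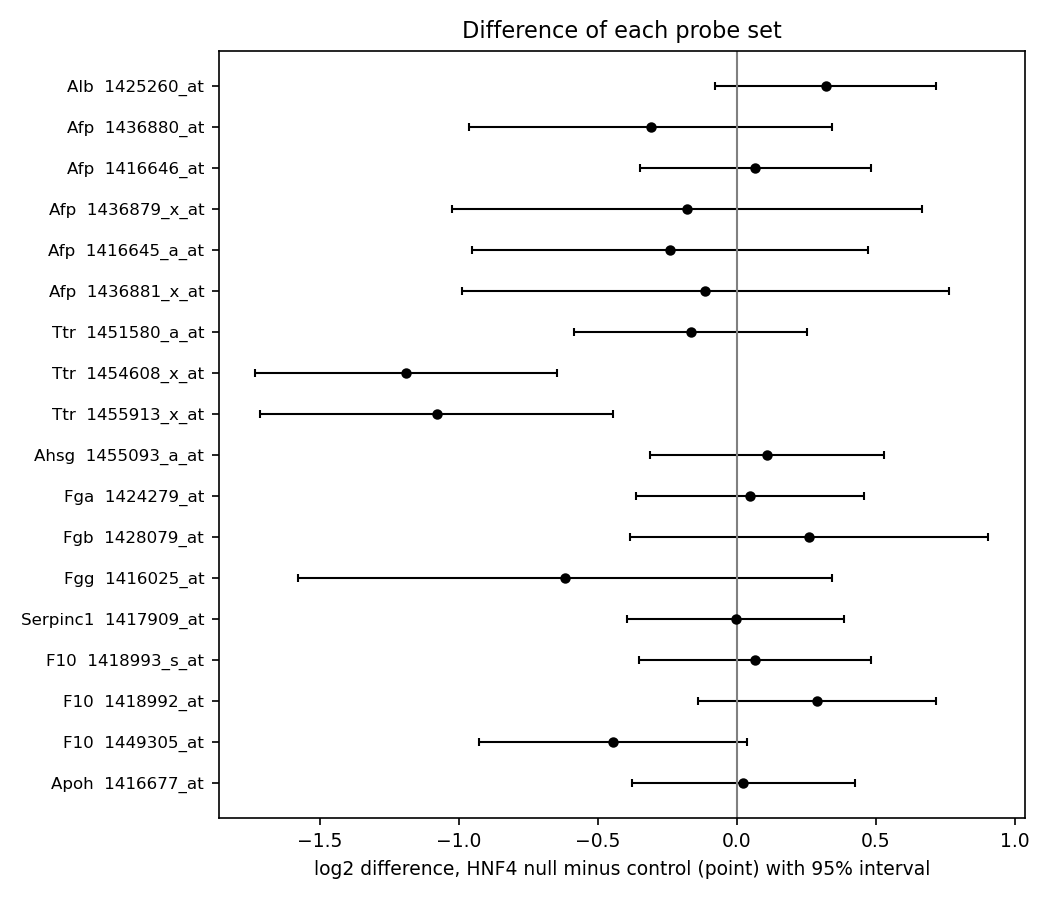
Log2 difference of HNF4 null minus control colons for each member probe set, with its 95% interval from limma. The intervals of 1454608_x_at and 1455913_x_at of Ttr lie below 0, and the other 16 include 0.

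Other genes of liver plasma proteins were read in the same way, from a list of 57 names of which 48 were measured. In this list 0 genes passed limma's threshold, against 0.137% of all genes by their brightest probe sets. At an unadjusted p under 0.05, 1 was lower and 2 were higher, against 4.24% and 2.60% of all genes, and the list's median difference was -0.0037. Serpina10, which encodes the inhibitor of factor X that depends on protein Z, read 109, 156 and 157 in null arrays and 250 and 233 in control arrays (-0.75 ± 0.19, SE, adjusted p = 0.401). Apom, an apolipoprotein of high-density lipoprotein, read 144, 124 and 141 in null arrays and 94.3 and 90.2 in control arrays (0.44 ± 0.16, SE, adjusted p = 0.643). F9, coagulation factor IX, read 71.3, 46.9 and 70.4 in null arrays and 38.9 and 36.1 in control arrays (0.45 ± 0.19, SE, adjusted p = 0.690). It lay below the median of the genes of other organs on every array.

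The ranges of the summed intensity of hepatocyte markers overlapped between the genotypes. Of 33 hepatocyte enzymes and transporters, 28 were measured, 0 passed the threshold, and 2 had an unadjusted p under 0.05, both lower (7.14% of the 28, against 4.24% of all genes): the glucuronosyltransferase Ugt2b5 (-1.28, adjusted p = 0.471) and the organic anion transporter Slco1b2 (-0.51, adjusted p = 0.642). Cyp2e1, a cytochrome P450 of the liver, came next (-0.40, adjusted p = 0.743). Ugt2b5 lay below the median of the genes of other organs on every array. Over all 28 genes the median difference was 0.14, and 10 of the 28 differences were below 0. The summed intensity of these genes ran from 5303 to 6659 in null arrays and from 5245 to 5378 in control arrays. Such a sum is set mostly by its brightest probe sets, and the amount of hepatocytes was not tested. Of the 13 genes of visceral yolk sac and fetal endoderm, 0 passed and 2 had an unadjusted p under 0.05, both lower (15.4% of the 13, against the same 4.24%), Cubn (-0.66) and Amn (-1.04), which encode the 2 parts of the cubam receptor for vitamin B12 and proteins. Amn read 80.7, 92.3 and 98.0 in null arrays and 110.1 and 348 in control arrays. Slc2a2, the glucose carrier of liver and pancreatic islets, came next (0.33, adjusted p = 0.745). Cubn and Slc2a2, like Ugt2b5, lay below the median of the genes of other organs on every array. The median of the 13 was 0.02. The part of these cells in the Ttr difference was not tested.

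Liver transcription factors were measured for 17 of 20 names, 4 of them lower and 0 higher at an unadjusted p under 0.05, with 0 past the threshold. The 4 are 23.5% of the list, against 4.24% of all genes lower and 2.60% higher. Cebpa, a C/EBP factor of liver, fat and gut epithelium, read 226, 279 and 192 in null arrays and 386 and 434 in control arrays (-0.78 ± 0.19, SE, adjusted p = 0.362). Cebpb and Foxa2, 2 other factors of the hepatic network, differed by -0.58 and -0.55 (adjusted p = 0.652 for both), and the list's median was -0.14. In the colon epithelium list, 1 of 18 measured genes passed the threshold, against 0.137% of all genes. Before adjustment, 9 (50% of them) stood lower at a p under 0.05, against 4.24% of all genes, and the median was -0.45. Aqp8, a water channel of the colonic surface, read 86.6, 70.0 and 60.02 in null arrays and 470.5 and 484 in control arrays (-2.50 ± 0.19, SE, adjusted p = 0.00654). Phgr1, a small protein of gut epithelium, and the keratin gene Krt20 differed by -1.34 (adjusted p = 0.0557) and -0.87 (adjusted p = 0.378). The difference between the lists was not tested.

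**Figure D4:**
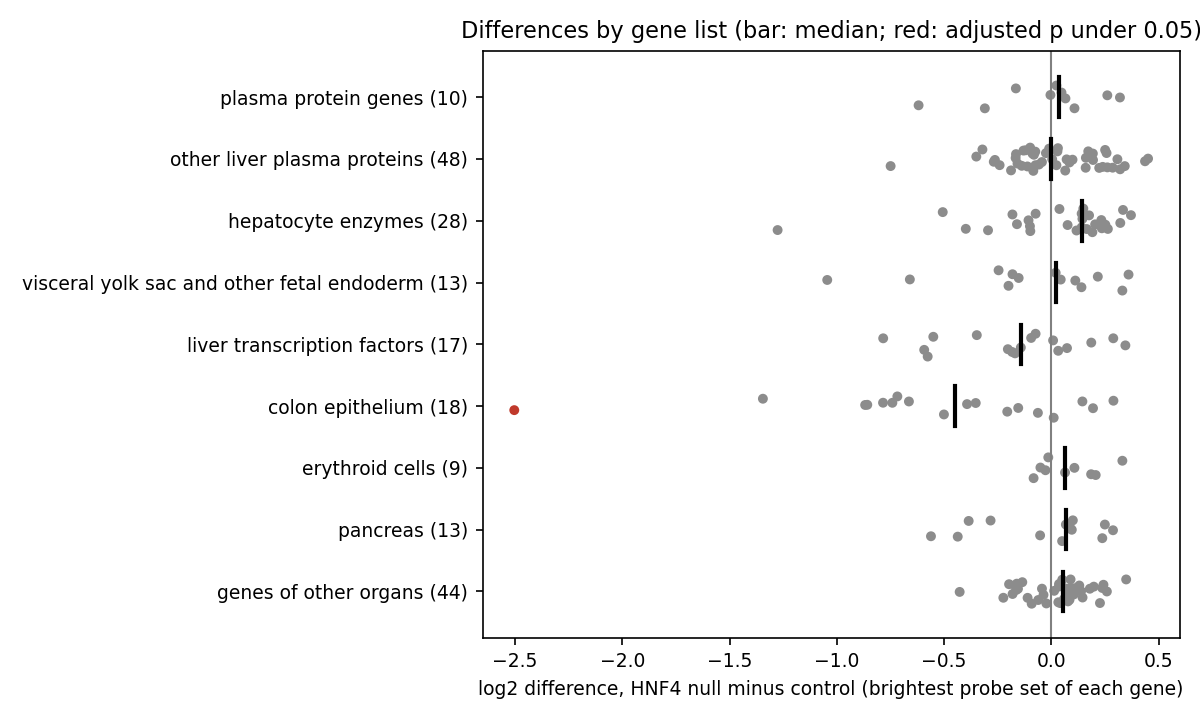
Log2 difference of HNF4 null minus control colons for each measured gene (dots, by its brightest probe set) in the plasma protein genes and 8 other gene lists, with the number measured in brackets and a bar at the median. The plasma protein genes centre at 0.03 and the colon epithelium list at -0.45, where Aqp8 (red) is the only gene past the threshold.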

How the data were processed

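The deposited table holds linear intensities, 1 for each probe set on each array; the summarising software, scaling and background step are not given in the sources used here. RNA was biotin-labelled by the Affymetrix procedure, per the labels' protocols. Of 22690 probe sets, 64 array controls were left out. A platform annotation paired 20380 of those tested with 1 symbol, 691 with several (not named) and 1555 with none; 20351 of the first matched RefSeq by gene ID.

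Values below 0 were set to 0, taken as log2(intensity + 16) and quantile normalised, since array medians spread over 0.114. Folds on this scale understate changes of dim genes. Null was compared with control by limma 3.58.1 in R 4.3.3 (lmFit, eBayes, two-sided, no covariate), with Benjamini-Hochberg adjustment over all 22626 probe sets. Values printed per array are the deposited ones, and motif searches and plots were made with Python 3.11.15. The fit was tested on simulated data. The number of arrays limits the precision, and p-values measure the spread between these 5 embryos.

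Named were all members by every probe set, Hnf4a, 3 genes per list with the smallest unadjusted p, and the 3 genes most correlated with the most variable member. Krt8, Krt19, Tff3, Slc26a3, Fabp2 and Epcam were named outside this rule, as examples of tissue markers. Members and lists were chosen with earlier results of these data known. Alternatives were no quantile step, median centring, pseudocounts of 64 and 1, a filter at a mean intensity of 100, a trended robust prior, array weights, other percentiles of the genes of other organs, and each array left out.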

Additional observations from a re-analysis of the deposited data

How the results depend on the processing

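The count of member probe sets past the threshold was 0 in 11 of 12 alternatives and ran from 0 to 1 over the fits that left out an array; the 1 was Ttr 1454608_x_at without CONTROL_421. Of 204 recomputed differences of member probe sets, 23 changed sign, and 9 of the 18 probe sets never did. With array weights, Afp 1416646_at became -0.049, Apoh -0.073 and Serpinc1 0.086, and Serpinc1 became 0.089 in the table as deposited and 0.043 with median centring. Over the fits that left out an array, the differences ran from -0.86 to 0.24 and from -0.080 to 0.21 for Afp 1436880_at and 1416646_at, from -0.62 to 0.078 and from -0.57 to 0.12 for 1436879_x_at and 1436881_x_at. They ran from -0.053 to 0.16 for Fga, -0.28 to 0.80 for Fgb, -0.077 to 0.091 for Serpinc1, -0.029 to 0.19 for F10 1418993_s_at, -0.12 to 0.17 for Apoh and -0.20 to 0.47 for Hnf4a 1421983_s_at. The cause was not tested. Where a single control array was left, its spread was taken to equal that of the null arrays. The colon epithelium count was 2 in place of 1, with Phgr1, at a pseudocount of 64, with the filter on dim probe sets and with the trended prior. The yolk sac list had 0 to 1 past the threshold without an array, the 1 being Amn without CONTROL_406 (adjusted p = 0.0167). With the 90th percentile of the genes of other organs, 1 member probe set exceeded it on every array, and with their highest value 0 did. Over all probe sets the count past the threshold was 28, with 8 without null_60, 104 without CONTROL_406, 18 without CONTROL_421, 14 with a pseudocount of 1 and 45 with array weights. The filter on dim probe sets left 6 of the 18 member probe sets, so no median of members was computed there. No paired analysis was possible because the labels do not say whether the embryos were littermates.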

Other observations

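Genes of the pancreas, another endoderm organ, were measured for 13 of 17 names, with 0 past limma's threshold and 3 lower at an unadjusted p under 0.05 (23.1% of the 13, against 4.24% of all genes). Cela2a, an elastase of pancreatic juice, read 104, 98.9 and 110.03 in null arrays and 161 and 153 in control arrays. Cela1, a related elastase, read 126, 126 and 143 in null arrays and 182 and 163 in control arrays. Clps, the colipase gene, read 73.4, 86.3 and 90.3 in null arrays and 101 and 126 in control arrays. The log2 differences of Cela2a, Cela1 and Clps were -0.56, -0.39 and -0.44 (adjusted p = 0.492, 0.684 and 0.677). These 3 do not stand for the list: 5 of the 13 differences were below 0, and the median was 0.07.

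Of 14 erythroid names, 9 were measured. Among them 0 passed limma's threshold and 0 had an unadjusted p under 0.05, against 0.137% of all genes past it and 4.24% lower and 2.60% higher before adjustment. The globin genes Hbb-b1 and Hbb-bt were not measured. Hba-a1 averaged 135 in null and 132 in control colons, and on no array exceeded the 95th percentile of the genes of other organs. The amount of blood in the samples was therefore not tested. Hbb-y, an embryonic globin, read 375, 279 and 676 in null arrays and 353 and 321 in control arrays (0.33, adjusted p = 0.842), and was highest in null_426. Rhag, of the red cell membrane, and the embryonic globin gene Hbb-bh1 differed by 0.21 and 0.18 (adjusted p = 0.814 and 0.864). The summed intensity of the list ran from 1168 to 1663 in null arrays and from 1207 to 1231 in control arrays.

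Among the genes of other organs, Prm2 (sperm protamine), Akap4 (sperm tail) and Aqp2 (kidney water channel) had the smallest unadjusted p, with differences of 0.35, -0.43 and 0.24 (adjusted p = 0.716, 0.767 and 0.789).

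Fgg was the member with the largest standard deviation over the 5 arrays (0.75 on the log2 scale), set by its value below 0 in null_60. Of 542 genes with a mean intensity of at least 100 and a log2 range of at least 1, the most like it over these 5 arrays were Tug1, Akr1c12 and Ucn2, with Pearson correlations of 0.943, 0.886 and 0.886. They were picked for this likeness, so their order over the arrays says nothing further.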
